A study of Mus musculus with 6 samples.

Results

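Fat lies on the outside of the heart and around its great vessels, and a dissected heart carries some of it along. The 10 genes described here, *Adipoq*, *Cfd*, *Retn*, *Lep*, *Plin1*, *Cidec*, *Cidea*, *Fabp4*, *Ucp1* and *Elovl3*, are markers of fat cells. They were taken as a measure of the fat attached to each heart. They were found by exact match of the gene name given for each probe of the array, which led to 12 of the 55681 probes other than controls and 10 of the 36163 genes named by a probe. *Retn* and *Cidec* have 2 probes each, and the other genes have 1. Each Agilent array carried Cy3-labelled RNA of 1 heart. The mice were male C57BL/6, fed from 4 weeks of age for 4 months with standard chow (normal diet, ND, 3 hearts) or a high fat diet (HFD, 60% of kcal from fat, 3 hearts). No mouse in either group is labelled as carrying a transgene.

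White fat cells keep their fat in 1 large droplet and send hormones into the blood. Perilipin 1 (*Plin1*) and the CIDE proteins coat that droplet and control its growth, and adiponectin (*Adipoq*), adipsin (*Cfd*), resistin (*Retn*) and leptin (*Lep*) are secreted. Brown fat cells burn fat for heat through the mitochondrial uncoupling protein *Ucp1*. Not all of these genes belong to fat cells alone, since capillary endothelium of the heart is known to make the fatty acid carrier *Fabp4*.

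For 4 of the 12 probes the sequence is shown, as the array file gives it in the direction of the transcript. Each was picked as a stretch that codes for the known protein, and each has an open reading frame over all 60 bases. The positions are those of mm9 in the file, and the place of the other 8 probes within their exons was not analysed here. The *Adipoq* probe is shown because the other genes are compared with it, the *Ucp1* probe because it was measured in a single heart, and the *Retn* and *Cidec* probes because a further probe elsewhere in the same gene repeats each measurement. No base is put in capitals, since no part of a probe is set apart.
*Adipoq*, probe A_51_P458451, plus strand, chr16:23157576-23157635: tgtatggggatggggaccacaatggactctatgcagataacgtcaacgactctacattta
*Ucp1*, probe A_51_P426353, plus strand, chr8:85821788-85821847: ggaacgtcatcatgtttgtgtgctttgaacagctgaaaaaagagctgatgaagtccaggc
*Retn*, probe A_55_P1984806, plus strand, chr8:3657312-3657371: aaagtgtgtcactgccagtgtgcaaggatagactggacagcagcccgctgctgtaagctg
*Cidec*, probe A_55_P1969128, minus strand, chr6:113378116-113378175: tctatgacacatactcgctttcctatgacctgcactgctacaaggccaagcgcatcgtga

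A level below is the log2 of the background-subtracted intensity minus the log2 of the 75th percentile of its array. It compares hearts for 1 probe and not 1 probe with another. No spot was saturated, an array had 49.2% to 52.9% of its probes well above background, and the number of arrays limits the precision. All arrays lay on 1 slide, HFD 1 and HFD 2 on its row 1 and the other hearts on row 2. Nothing in the labels ties ND and HFD hearts of 1 number together. HFD 2 stood apart from the other hearts in certain genes, and it was singled out after their values were seen. Markers of atrial muscle were far lower in HFD 2, where the level of the atrial light chain *Myl7* was -1.17 against 2.92 to 6.76 in the other hearts. HFD 1 had the highest *Myl7* level, though close to that of ND 3, 6.21. It was the only heart with *Bmp10*, an atrial growth factor, well above background. The *Adipoq*, *Cfd*, *Retn*, *Cidec* and *Plin1* levels were lowest in HFD 2 as well, and their differences between diets, spread and correlations are given with and without that heart.

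The secreted adipokines varied between hearts of 1 diet more than between the diets. *Adipoq*, the hormone adiponectin, was well above background in all 6 hearts. The ND hearts gave intensities of 89.0, 180 and 206 (ND 1 to ND 3), and the HFD hearts gave 398, 28.1 and 146 (HFD 1 to HFD 3). The highest and the lowest heart were both of the HFD group and differed 12.6-fold, and all ND hearts lay between them. The mean level was -1.44 ± 0.67 (SD, n = 3) for ND and -1.82 ± 1.83 for HFD. That is a log2 fold change, HFD over ND, of -0.39 (SE 0.92, limma adjusted p = 0.903).

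*Cfd*, the complement protease adipsin, had the widest spread of all these genes that were well above background. The signal was 1126, 2101 and 2495 for the ND hearts, against 2395, 72.4 and 948 for HFD 1, HFD 2 and HFD 3. Only HFD 2 lay far from the rest, with HFD 3 slightly below ND 1 and HFD 1 among the ND hearts. The highest heart was 32.9-fold above the lowest. The log2 fold change was -1.77 (SE 1.22, limma adjusted p = 0.624), with a 95% interval from -4.77 to 1.23 that takes in 0.

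*Retn* codes for resistin and was read by 2 probes that start 2445 bases apart. Probe A_55_P1984806 had levels of -2.12, -1.08 and -0.81 for the ND hearts, against -0.71, -4.93 and -1.75 for HFD 1, HFD 2 and HFD 3. Probe A_55_P2428514 had -1.84, -0.89 and -0.70, against -0.51, -3.74 and -1.43. The probes put the hearts in the same order, from HFD 2 through ND 1, HFD 3, ND 2 and ND 3 up to HFD 1. The first was not well above background in HFD 2, so that its value there is only an upper bound. The log2 fold changes were -1.13 (SE 1.09, limma adjusted p = 0.730) and -0.75 (SE 0.84, limma adjusted p = 0.769). The *Adipoq* probe and the *Cidec* probe A_55_P1969131 had this order of hearts too.

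*Lep*, the satiety hormone leptin, did not come well above background on a single array. Its probe was spotted 10 times on each array, and its mean intensity was between 3.84 and 6.91, while the lowest signal of any probe well above background was 15.6 to 21.1. Leptin mRNA was therefore below what these arrays can measure in all 6 hearts, and it was not tested.

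**Figure D1:**
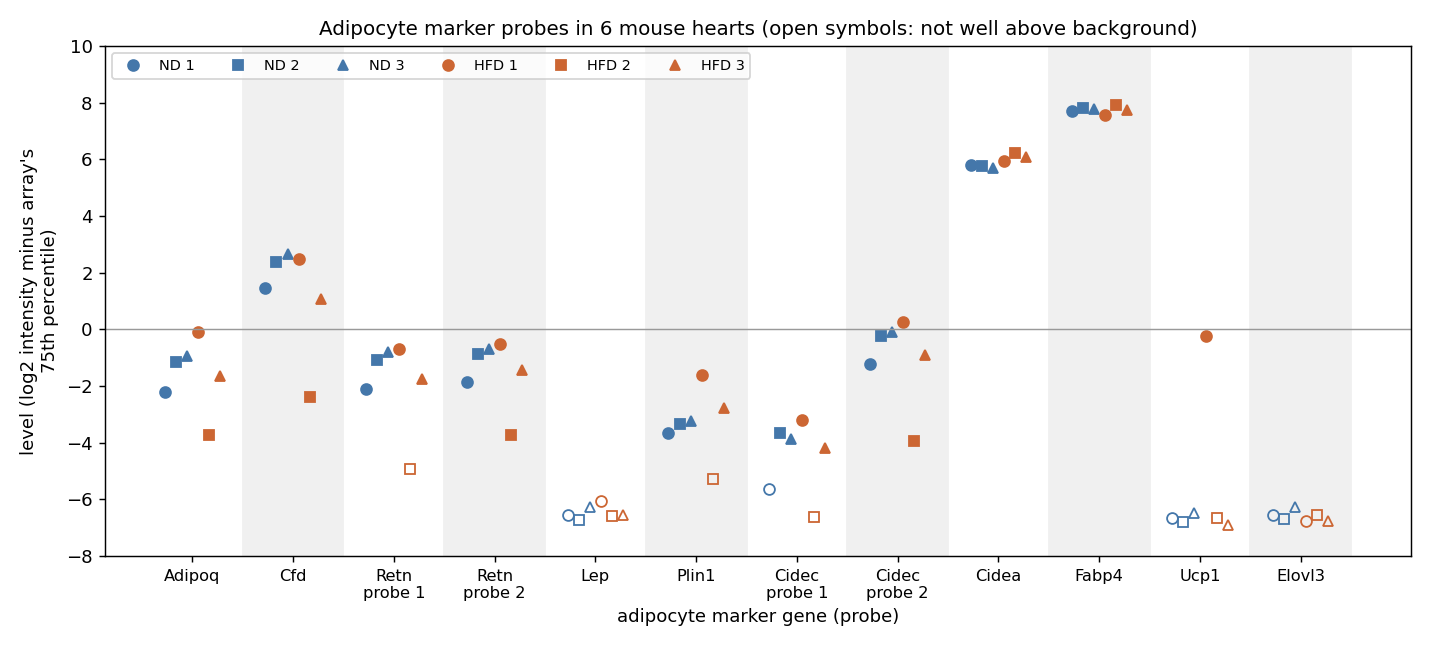
Level of each of the 12 adipocyte marker probes in each heart, as log2 intensity minus the 75th percentile of the array (vertical axis), with ND hearts in blue, HFD hearts in orange and open symbols for values not well above background. Levels compare hearts within a probe. HFD 2 is the lowest of the 6 hearts for *Adipoq*, *Cfd*, *Retn*, *Plin1* and *Cidec*, while *Fabp4* and *Cidea* vary little and *Ucp1* is seen in HFD 1 alone.

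Among the droplet proteins, *Plin1* and *Cidec* varied with the adipokines and *Cidea* did not. *Plin1*, which guards the fat cell's droplet against lipolysis, had intensities of 32.4, 39.6 and 41.9 for the ND hearts, against 140, 9.68 and 66.4 for HFD 1, HFD 2 and HFD 3. The ND hearts lay close together, HFD 1 and HFD 3 were above all of them, and HFD 2 was below them and not well above background. Its log2 fold change was 0.20 (SE 0.90, limma adjusted p = 0.952) with all hearts. Without HFD 2 it was 1.23 (SE 0.37, unadjusted p = 0.0216, limma adjusted p = 0.342), and the remaining HFD hearts no longer overlapped the ND hearts. Without HFD 1 the sign turned, to -0.61 (SE 0.76, limma adjusted p = 0.786), so a single HFD heart sets the direction of this difference.

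*Cidec*, whose protein joins small droplets into a large one, has 2 probes that start 3486 bases apart. Probe A_55_P1969131 had intensities of 174, 348 and 367 for the ND hearts, against 502, 24.8 and 238 for HFD 1, HFD 2 and HFD 3. HFD 1 was again the highest heart and HFD 2 the lowest, 18.0-fold apart. The log2 fold change was -1.01 (SE 1.06, limma adjusted p = 0.751). The dimmer probe A_55_P1969128, whose sequence is given above, was well above background in ND 2, ND 3, HFD 1 and HFD 3 and was not tested. It read 8.25, 32.1 and 27.3 for the ND hearts, against 46.1, 3.79 and 24.7 for the HFD hearts, so that here too HFD 1 was highest and HFD 2 lowest.

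*Cidea*, a droplet protein known from brown fat, was detected in every heart, at a level 1.26-fold higher in HFD that did not pass the adjustment. Its levels were 5.80, 5.76 and 5.68 for the ND hearts, against 5.95, 6.20 and 6.09 for HFD 1, HFD 2 and HFD 3. Each HFD heart was above each ND heart, and HFD 2, the lowest heart for the genes above, was the highest here. The log2 fold change was 0.34 (SE 0.09, 95% interval 0.12 to 0.55). Its unadjusted limma p was 0.00843 and its adjusted p was 0.265. The two-sided exact permutation test gave p = 0.10, the smallest that 3 hearts against 3 allow. Leaving out any 1 heart kept the difference between 0.28 and 0.40 on the log2 scale. The lack of overlap could not change, since a heart left out cannot bring an overlap about.

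*Fabp4*, the fatty acid carrier of fat cells and capillaries, was the most even of the 10 genes among those detected. Its intensities ran from 86335 to 91117 in ND hearts and from 80562 to 97394 in HFD hearts. The highest level was in HFD 2, at 7.93, and the lowest in HFD 1, at 7.57, the reverse of *Adipoq*, *Retn* and *Cidec*. The log2 fold change was -0.02 (SE 0.11, limma adjusted p = 0.962), with a 95% interval from -0.28 to 0.24.

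*Ucp1*, the heat-producing uncoupling protein that defines brown fat cells, was measured in HFD 1 alone. Its intensity there was 356, and elsewhere it was 4.04, 3.62 and 4.38 for the ND hearts and 3.76 and 3.78 for HFD 2 and HFD 3. Taken over the dimmest signal that still counted as well above background on each other array, HFD 1 was at least 15.7-fold higher than each of the other 5 hearts. This is a value of 1 heart read by 1 spot per array, and the difference between diets was not tested. *Elovl3*, a fatty acid elongase of brown fat, was not well above background in any heart, HFD 1 included, with intensities of 3.90 to 5.14.

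The diets were then compared over the whole array. Of the 12 probes, 8 of 7 genes had enough signal to be tested, and those of *Plin1* and the first *Retn* probe passed only because all ND hearts were above background. None of the 8 passed the limma adjustment, against 0.0145% of all 27587 probes tested. At an unadjusted p below 0.05 there was 1, *Cidea*, of 8, against 11.9% of all probes. Likewise 1 of 8, *Cidea* again, had diets that did not overlap, against 19.2% of all probes. These shares are near those of the whole array. Of the 8 log2 fold changes 2 were positive and 6 negative, and their median was -0.57, against 0.0034 over all probes tested.

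That median rested on HFD 2. Without this heart 9 member probes had enough signal to be tested, 7 of them higher in HFD, and their median was 0.18 against -0.01 over all probes. The probe added to the 8 was *Cidec* A_55_P1969128, counted among those higher. It passed only through HFD 1 and HFD 3, since ND 1 was not well above background. This median and that of -0.57 are therefore of unlike sets of probes. *Adipoq* then had a log2 fold change of 0.57 (SE 0.60, limma adjusted p = 0.718), and that of *Cfd* was -0.38 (SE 0.56, limma adjusted p = 0.799). The *Cidec* probe A_55_P1969131 came to 0.18 (SE 0.50, limma adjusted p = 0.897). The *Retn* probes came to 0.11 (SE 0.51, limma adjusted p = 0.945) and 0.17 (SE 0.46, limma adjusted p = 0.894). Still none passed the limma adjustment, nor did any of the 28220 probes tested without HFD 2, of which 12.5% had an unadjusted p below 0.05. At that unadjusted limit 2 of the members' probes were found, *Cidea* and *Plin1*, which were also the ones without overlap, against 32.8% of all probes in this smaller set. Without HFD 1, in turn, the log2 fold change of *Cfd* was -2.82 (SE 1.08, unadjusted p = 0.04996, limma adjusted p = 0.415), and both HFD hearts left were below all ND hearts. In that set 2 of the members' probes, *Cfd* and *Cidea*, did not overlap between diets and none passed the adjustment, against 31.9% and 0.0107% of the 28000 probes tested.

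**Figure D2:**
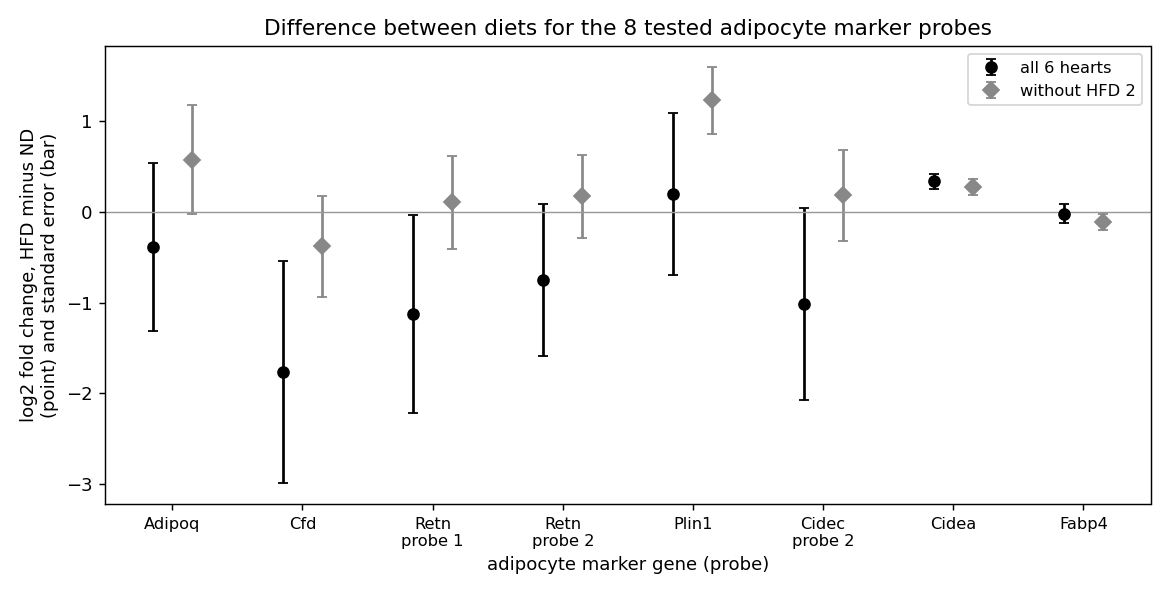
Log2 fold change of HFD over ND hearts for the 8 tested probes with all 6 hearts (black) and without HFD 2 (grey), with bars of 1 standard error from limma. Leaving out HFD 2 moves *Adipoq*, *Retn* and *Cidec* from below to above 0 and *Plin1* from 0.20 to 1.23, and leaves *Cidea* near 0.3.

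The size of the spread between hearts set most of these genes apart from the array as a whole. The SD over the 6 hearts, both diets together, was 1.90 on the log2 scale for *Cfd*, which ranked 13 among the 27587 probes tested. The brighter *Cidec* probe ranked 41, the *Retn* probes 35 and 101, *Adipoq* 86 and *Plin1* 100. The median SD of all probes was 0.15. *Cidea* (SD 0.20, rank 9684) and *Fabp4* (SD 0.12, rank 17302) were among the ordinary probes. Without HFD 2 the SD over the 5 hearts left was 0.81 for *Plin1*, rank 365 of the same probes, 0.79 for *Adipoq*, rank 395, and 0.70 for *Cfd*, rank 611. The brighter *Cidec* probe then ranked 952 and the *Retn* probes 931 and 1279, against a median SD of 0.14. In RNA of heart tissue, fewer fat cells and less of these mRNAs in each fat cell cannot be told apart. The labels do not give which parts of the heart were taken.

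Genes with the pattern of *Adipoq* over the 6 hearts were sought among the 625 probes of other named genes with an SD of at least 0.5 that were well above background on every array. Pearson's r was above 0.95 for 16 of them, over 6 hearts of which HFD 2 is the extreme. *Rbp4*, the retinol carrier that fat and liver secrete, came first (r = 0.988). Its levels were -1.29, -0.69 and -0.32 for the ND hearts, against 0.81, -3.31 and -0.69 for HFD 1, HFD 2 and HFD 3, a 17.4-fold range. *Car3*, a carbonic anhydrase abundant in fat cells, had r = 0.973 and a 31.5-fold range. The others of the first 10 were *Sfrp2* (0.975), *Tceal5* (0.973), *Acp5* (0.971), *Gli1* (0.967), *Hp* (0.966), *Scrn1* (0.966), *Apoc1* (0.959) and *Hebp2* (0.959). Of the marker genes themselves, the 2 *Retn* probes had r of 0.957 and 0.974 with *Adipoq*, and *Cidec* had 0.966, *Plin1* 0.932 and *Cfd* 0.921. *Cidea* (r = -0.56) and *Fabp4* (r = -0.80) ran the other way. Over the 5 hearts without HFD 2, r with *Adipoq* was 0.965 for *Rbp4* and from 0.865 to 0.961 for the other 9. It was then 0.930 and 0.952 for the *Retn* probes, 0.964 for *Cidec*, 0.802 for *Plin1*, 0.756 for *Cfd*, 0.03 for *Cidea* and -0.55 for *Fabp4*. These values describe a handful of hearts and carry no test.

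Other genes of white fat cells showed less of this pattern as a list, which takes in genes bright and even in all hearts, such as *Dgat2* (1.29-fold range). Single genes of it had the pattern. *Rbp4*, *Car3* and *Pck1*, the last named after its values were seen, were lowest in HFD 2 and highest in HFD 1. Their ranges were 17.4-fold, 31.5-fold and 7.26-fold. Others did not, and *Lipe* was highest in HFD 2. Of 24 further white fat cell genes on the array, 20 were tested, 8 higher and 12 lower in HFD. Their median difference was -0.07 on the log2 scale, and 0.11 without HFD 2. None passed the adjustment, and 3 had an unadjusted limma p below 0.05. The largest increase was that of *Lipe*, the hormone-sensitive lipase, at 0.38 (SE 0.14, limma adjusted p = 0.380). *Car3* had the largest decrease, -1.002 (SE 1.22, limma adjusted p = 0.789), with a level of -3.17 in HFD 2 and 1.81 in HFD 1. *Dgat2*, the enzyme of the last step of triglyceride synthesis and the strongest signal of this list, was at -0.24 (SE 0.08, limma adjusted p = 0.334). The list's mean deviation from each gene's 6-heart mean was still lowest in HFD 2, -0.36, and highest in HFD 1, 0.27.

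The other brown fat cell genes gave no common pattern with *Ucp1*. Of 16 genes, 14 were tested and none passed the adjustment, with 4 higher and 10 lower in HFD, 2 at an unadjusted limma p below 0.05 and a median of -0.10. The list's mean deviation was -0.04 in HFD 1, the heart with *Ucp1*, and lay between -0.11 and 0.08 in the other hearts. Single genes differed from that mean, which takes in genes that heart muscle expresses itself. *Zic1* and *Dio2*, named after their values were seen, had their highest levels in HFD 1, -1.74 against -2.33 to -1.90 and -0.52 against -1.60 to -0.70. They were the only ones of the 14 tested genes to be highest in HFD 1, and all others were highest in another heart. *Zic1* in HFD 3 was close behind, at -1.90. The largest increase was that of *Prdm16*, a regulator of brown fat cell identity, at 0.34 (SE 0.18, limma adjusted p = 0.516), with its highest level in HFD 2. *Otop1* had the largest decrease, -0.68 (SE 0.35, limma adjusted p = 0.510). *Cox7a1*, a cytochrome oxidase subunit of heart, muscle and brown fat, gave the strongest signal of the list and had -0.14 (SE 0.09, limma adjusted p = 0.595).

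**Figure D3:**
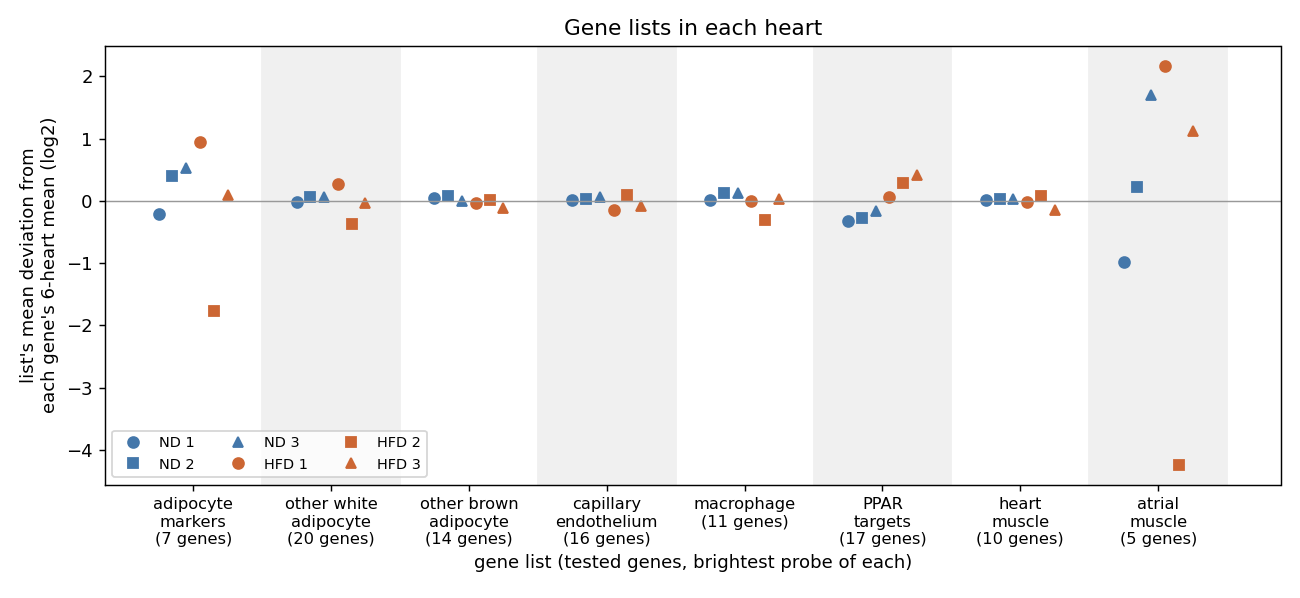
Mean deviation of 8 gene lists in each heart from the 6-heart mean of each gene (log2, vertical axis), over the tested genes of each list with the strongest probe of each, ND in blue and HFD in orange. The adipocyte markers run from -1.77 in HFD 2 to 0.94 in HFD 1 and the atrial genes from -4.23 to 2.17 in the same hearts, while the other lists stay between -0.36 and 0.41.

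The regulators and partners of these genes were measured in the same hearts. Of the 9 transcription factors of fat cell formation 8 were higher in HFD, with a median of 0.16, and none passed the adjustment. *Ebf1*, an early B-cell and fat cell factor, had the largest increase, 0.54 (SE 0.08, unadjusted p = 0.000642, limma adjusted p = 0.128), without overlap between the diets. *Klf15* was the only one lower, at -0.29 (SE 0.16, limma adjusted p = 0.552). Of the 9 receptors and partners of the adipokines 3 were higher and 6 lower, none at an unadjusted p below 0.05. They ran from *Cap1*, a binding partner of resistin, at 0.19 (SE 0.10, limma adjusted p = 0.519), to the leptin receptor *Lepr*, at -0.20 (SE 0.13, limma adjusted p = 0.609).

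Heart muscle has droplet proteins and fatty acid genes of its own. Of 8 droplet genes of heart muscle 4 were higher and 4 lower, with a median of 0.02, 3 at an unadjusted limma p below 0.05 and none past the adjustment. *Plin2*, the general droplet coat, was at 0.28 (SE 0.07, limma adjusted p = 0.270), and *Plin3* was at -0.48 (SE 0.11, limma adjusted p = 0.241), both without overlap. Of 17 target genes of the fatty acid receptors PPAR, 16 were higher in HFD, 8 of them at an unadjusted limma p below 0.05, with a median of 0.36 and none past the adjustment. *Angptl4*, an inhibitor of lipoprotein lipase, had the only decrease, -0.20 (SE 0.60, limma adjusted p = 0.924). The PPAR list's mean deviation was -0.32, -0.27 and -0.16 for the ND hearts, against 0.06, 0.28 and 0.41 for HFD 1, HFD 2 and HFD 3, so that HFD 2, lowest for the fat cell hormones, was not set apart here. *Cidea* shared this order of diets.

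Other cells that can carry these genes or come along with fat were checked by their markers. All 16 endothelial genes were detected in all hearts. Of these 6 were higher and 10 lower, 3 with an unadjusted limma p below 0.05 and none past the adjustment. Their signal, summed in units of the array's 75th percentile, was 475 to 483 in ND and 368 to 461 in HFD. The brightest genes weigh most in this sum. HFD 1 had the lowest sum and the lowest *Fabp4*. HFD 2, the highest for *Fabp4*, had a sum of 461, below each ND heart. The endothelial genes ran from the carbonic anhydrase *Car4*, at 0.19 (SE 0.11, limma adjusted p = 0.547), down to the water channel *Aqp1*, at -0.38 (SE 0.16, limma adjusted p = 0.420). Of 11 macrophage genes 3 were higher and 8 lower, and none passed the adjustment. The mean deviation of this list was also lowest in HFD 2, -0.30, against -0.01 to 0.13 in the other hearts. *Cd68* was at 0.20 (SE 0.13, limma adjusted p = 0.590), *Itgam*, the strongest signal, at 0.20 (SE 0.08, limma adjusted p = 0.429), and *Cd163* at -1.09 (SE 0.44, limma adjusted p = 0.414). *Cd163* was not well above background in HFD 2 and was tested only through its signal in the ND hearts.

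Mesothelium, the cell layer that covers the heart and its fat, was unequal between hearts. Of its 9 markers, 7 were well above background in HFD 1 and 3, 4, 2, 3 and 4 in ND 1, ND 2, ND 3, HFD 2 and HFD 3. Their signal, summed in units of the array's 75th percentile, was 2.64 to 3.51 for the ND hearts, against 5.17, 5.18 and 2.98 for HFD 1, HFD 2 and HFD 3. The markers disagreed on which heart was highest. *Msln* had a level of -0.55 in HFD 1 and -3.64 or less elsewhere, while *Upk3b* was at -2.39 in HFD 2, -3.03 in HFD 1 and not well above background elsewhere. *Wt1*, the strongest of the list, was also highest in HFD 2, at 2.08 against 1.54 in HFD 1, and had a log2 fold change of 0.31 (SE 0.32, limma adjusted p = 0.746). *Upk1b* and *Lrrn4* were not well above background in any heart. HFD 2, the heart lowest for the fat cell genes, was thus highest for *Wt1*, which weighs most in the sum, and for *Upk3b*. *Msln* and *Krt8*, the latter named after its values were seen, were not well above background there. The level of *Krt8* was lowest in HFD 2, at -4.41, so the markers do not place this heart in 1 direction. The part of attached tissue in these values was not tested.

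Atrial muscle varied most. Of 7 atrial genes 5 were tested, all lower in HFD and none past the adjustment, with a median of -0.56 that became 1.45 without HFD 2. Their signal, summed in the same units, was 242, 462 and 1204 for the ND hearts, against 1437, 68.6 and 719 for HFD 1, HFD 2 and HFD 3. *Sln*, the atrial regulator of the calcium pump, had the largest difference, -1.22 (SE 2.64, limma adjusted p = 0.891). The 10 genes of ventricular and shared heart muscle had, as a list, a mean deviation between -0.15 and 0.08 in each heart, and single genes went beyond that. Their log2 fold changes ran from *Myh6* at 0.09 (SE 0.09, limma adjusted p = 0.744) to *Ckm* at -0.26 (SE 0.09, limma adjusted p = 0.378). Heart muscle markers were thus present in all 6 hearts, and the atrial mRNAs were unequal among them.

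*Adipoq*, *Retn*, *Cidec*, *Plin1* and *Cfd* varied together with the atrial gene *Myl7* across hearts. Since both were known to be lowest in HFD 2 when the relation was computed, it is a description and carries no test. Over the 6 hearts Pearson's r with *Myl7* was 0.951 for *Adipoq*, 0.961 for *Retn*, 0.954 for *Cidec*, 0.923 for *Plin1* and 0.907 for *Cfd*. Spearman's rho was 0.943 for the first 4 of these and 0.771 for *Cfd*. *Cidea* (r = -0.52, rho = -0.37) and *Fabp4* (r = -0.75, rho = -0.60) had the opposite sign. Without HFD 2, r over the 5 hearts left was 0.839 for *Adipoq*, 0.807 for *Retn*, 0.761 for *Cidec*, 0.767 for *Plin1*, 0.459 for *Cfd*, 0.28 for *Cidea* and -0.39 for *Fabp4*. Without ND 1 as well, the next farthest from the median of *Myl7*, it was 0.642 for *Adipoq*, 0.444 for *Retn*, 0.410 for *Cidec*, 0.732 for *Plin1* and 0.182 for *Cfd*. The relations therefore rest in large part on those hearts.

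Slide row 2 holds 4 of the hearts, all ND hearts and HFD 3, and row 1 has too few for a value. Within row 2, r with *Myl7* was 0.781 for *Adipoq*, 0.715 for *Retn*, 0.633 for *Cidec*, 0.766 for *Plin1* and 0.316 for *Cfd*. Taken as deviations from the mean of each diet, r over all 6 hearts was between 0.9504 and 0.9805 for these genes, with HFD 2 in place. The part of dissection in the adipokine levels was not tested.

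**Figure D4:**
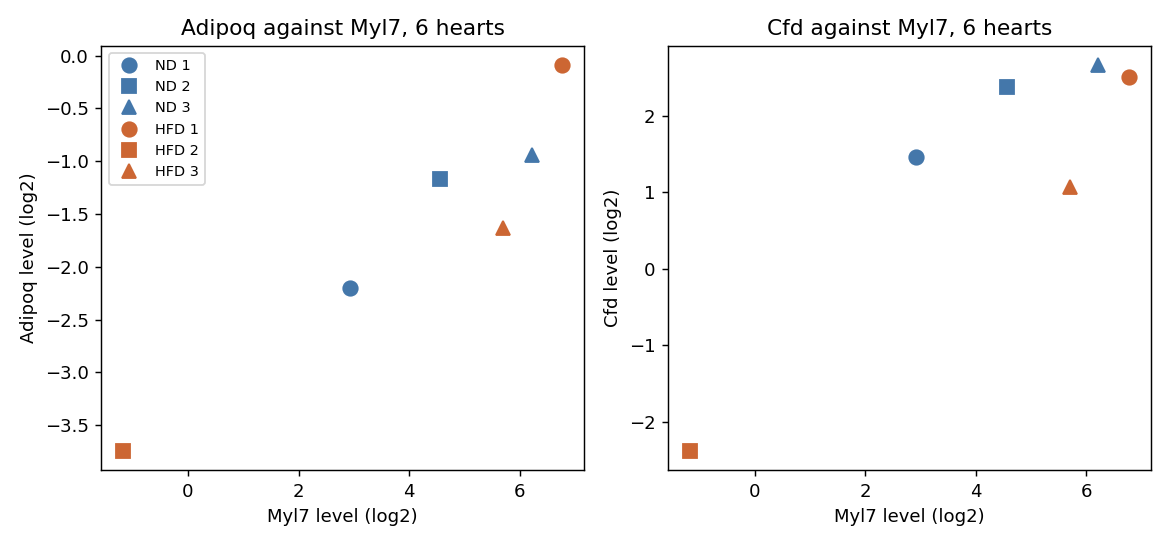
Level of *Adipoq* (left) and *Cfd* (right) against that of the atrial gene *Myl7*, each as log2 intensity minus the array's 75th percentile, 1 symbol per heart with ND in blue and HFD in orange. HFD 2 lies at the lower left of both plots and HFD 1 at the upper right, with r of 0.951 and 0.907 over all hearts and 0.642 and 0.182 without HFD 2 and ND 1.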

How the data were processed

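RNA from 3 ND and 3 HFD hearts was read on 1-colour Agilent arrays, and samples were grouped by their titles. The deposited intensities are linear and had been background-subtracted by Agilent Feature Extraction 10.7, with nothing normalized between arrays. The deposited mean and local background intensity served the normexp alternative. The authors' deposited log2 table (Spearman's rho of 1 with its own arrays, at most 0.954 with others) was an alternative, and how it was made is not given in the sources used here. Probe positions are on mm9.

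Control spots and 127 to 190 outlier-flagged spots per array were left out, spots of 1 probe were averaged, and the array's 75th percentile was subtracted on the log2 scale. Testing required a probe to be well above background in all hearts of a diet, with a value on 2 or more arrays per diet. The diets were compared by limma 3.58.1 (R 4.3.3, lmFit and eBayes, two-sided) with Benjamini-Hochberg adjustment over 27587 probes. Other lists used 1 probe per gene, the strongest. No pair of arrays was identical (Pearson's r of 0.983 to 0.989 within a diet).

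The members and lists were chosen with earlier results of these data known. Named are all member probes, of each list the genes with the largest increase and decrease and of some the strongest, and the 10 probes most like *Adipoq*. For 1 gene of a list, its own value is not reported here. *Bmp10*, *Msln*, *Upk3b*, *Upk1b* and *Lrrn4* were named after their values were seen, and *Myl7* was picked as the atrial gene for the relation after its values were known. Alternatives were quantile normalization, normexp (offset 50), no or a stricter filter, the authors' log2 values, the methods' t-test, array weights, robust variances with an intensity trend, replicate and slide row blocks, outlier spots kept, gene averages and each heart left out. The code was tested on simulated data. Input used jsonlite 2.0.0 and figures were drawn in matplotlib 3.10.9.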

Additional observations from a re-analysis of the deposited data

How the results depend on the processing

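No probe of the 10 genes passed the limma adjustment under any of the 18 alternatives, and the difference of *Cidea* kept its direction in all of them, from 0.28 to 0.40 on the log2 scale with adjusted p from 0.139 to 0.669. At an unadjusted p below 0.05 there was 1 member probe, 0 with slide row as a block, where *Cidea* had a limma p of 0.0512, and 1 to 2 with a heart left out. With that block, only HFD 3 is set against the ND hearts. The number without overlap was 1, and 1 to 2 with a heart left out, which could not lower it. The replicate number as a block changed no call on a member and lowered the calls over all probes from 4 to 0. Hearts of 1 number had deviations that correlated at -0.15, 0.15 and 0.19, and they were not treated as pairs.

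The member median of -0.57 was -0.24 with normexp, without the filter and with slide row as a block, -0.30 with array weights, and -1.35 to 0.18 with a heart left out, positive without HFD 2. The set of probes behind it differed without the filter and with some of the hearts left out. Differences that turned sign were those of *Fabp4* (-0.02) with quantile normalization (0.037) and in the authors' table (0.032), and, with a heart left out, those of *Plin1* (-0.61 without HFD 1, -0.03 without HFD 3, 1.23 without HFD 2), *Fabp4* (0.003 without ND 2, 0.072 without HFD 1, -0.11 without HFD 2), *Adipoq* (-1.25 to 0.57), *Cidec* (-1.90 to 0.18) and *Retn* (-2.004 to 0.11 and -1.44 to 0.17), the lowest of these without HFD 1 and the highest without HFD 2. The cause was not tested beyond the heart left out.

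Over all probes, 4 passed the adjustment, against 45 with normexp, 97 with an intensity trend and robust variances, 7 with array weights, 2 in the authors' table, 1 with gene averages, 0 without the filter or with either block, and 0 to 5 with a heart left out. At an unadjusted p below 0.05 there were 3288, against 2186 with slide row as a block. PPAR targets past the adjustment were 1 with normexp and 3 with trend and robust variances. Medians moved for mesothelium (0.27) to 0.57 without the filter, 0.022 with slide row and 0.20 to 0.74 with a heart left out, for neutrophils (-0.30) to -1.26 with slide row and -1.62 to 0.21 with a heart left out, for heart muscle (-0.04) to -0.20 with slide row, and for adipokine receptors (-0.07) to between -0.074 and 0.071 with a heart left out. Scaling moved the median of all probes by less than 0.03. Values of *Lep*, *Elovl3* and, outside HFD 1, *Ucp1* are limited by signal over background.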

Other observations

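Neutrophil markers varied between hearts, and not all in 1 order. Of 8 genes on the array 4 were tested, 2 higher and 2 lower in HFD, and none passed the limma adjustment. *S100a9*, a calcium-binding protein of neutrophils, had levels of 2.62, 2.51 and 0.37 for the ND hearts, against 1.48, 1.86 and -0.40 for HFD 1, HFD 2 and HFD 3, lowest in HFD 3 and not in HFD 2. Its log2 fold change was -0.86 (SE 0.83, limma adjusted p = 0.730), and that of *Elane*, neutrophil elastase, was 0.51 (SE 0.20, limma adjusted p = 0.412). *Elane* had another order of hearts, highest in HFD 1, at 1.17, and lowest in ND 2, at 0.13. The activin receptor gene *Acvr1c*, a further white fat cell gene, was named after its values were seen. The stronger of its 2 probes was, as with *Ucp1* in HFD 1, well above background in 1 heart alone. That heart was ND 2, at a level of 0.43 against -4.89 or less in the others. The values of its other probe are not given here.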
